A study of Mus musculus with 120 samples.

Results

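Vnn1 and Vnn3 encode vanins, the pantetheinases of the mouse, and their liver signal was followed across 30 strains. All probe sets with the gene symbol Vnn1 or Vnn3 were taken, which gave 2 of 18193 genes and 3 of the 45037 probe sets in the table, 2 for Vnn1 and 1 for Vnn3. The genes were chosen by their measured strain differences, which were already known, so their values are given as a description with no p-value. Vanins hydrolyse pantetheine, a breakdown product of coenzyme A, into pantothenate (vitamin B5, the precursor of coenzyme A) and cysteamine, an aminothiol. Vnn1 is held on the cell surface by a lipid anchor and is a known liver target of PPARA, the fatty acid receptor that raises fat oxidation genes in fasting. Biotinidase, encoded by Btd, is their relative and recycles the vitamin biotin.

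Total liver RNA of 10-week-old males was hybridised to Affymetrix Mouse Genome 430_2 arrays after 4 h of fasting. The groups were MSM, an inbred strain from Japanese wild mice, 28 consomic strains and the control C57BL/6J (B6). A consomic strain carries 1 chromosome of MSM, or its C or T part, or the MSM mitochondria, on a B6 background, and is named by that chromosome (B6-Chr6CMSM, B6-mtMSM). Each strain had arrays of 2 animal numbers, 2 arrays for each number and 120 arrays in all. Arrays with 1 animal number were taken as 1 male, which the labels do not state outright. No source used here gives the boundaries of the C and T parts, or any pooling, batch or scan date.

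Vnn3 and Vnn1 lie next to each other on chromosome 10, with 0 annotated genes between them, and no strain analysed here carries chromosome 10 alone from MSM. In the consomic strains both genes are therefore the B6 copies, and a difference from B6 is a distant one. In MSM the genes themselves also come from MSM, so that a different level, a different match of the MSM transcript to the probes and a distant effect cannot be told apart. Within bulk liver, fewer cells of a type and less RNA per cell cannot be told apart either.

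The deposited values run from 6.34 to 14.82 on a log2 scale, and the medians of the arrays lie between 7.416 and 7.417. The spread of a probe set between males differed widely between probe sets and was very small for most, with a median residual SD of 5.95e-05 over the tested genes. How the values were made is not named, so a difference is given in deposited log2 units, is not read as a log2 fold change, and is not set against that of another probe set. Where several genes are put together, each difference is divided by that gene's own residual SD. Vnn1 and Vnn3 are among the probe sets with a wide spread, with residual SDs of 0.0499 (Vnn1, probe set 1418486_at) and 0.00398 (Vnn3).

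Vnn1 was lowest in MSM, next lowest in the consomic strains for either part of chromosome 6, and high in B6. At the brighter probe set, 1418486_at, the signal was 7.400 and 7.416 in the MSM males, against 7.886 and 7.794 in the B6 males. The MSM mean differed from B6 by -0.43 ± 0.05 (SE from the residual spread of all 30 strains, 2 males each). The groups did not overlap, and both MSM males also lay below all 58 other males. The gap between the 2 arrays of a male had a median of 0.0138 and the gap between the 2 males of a strain a median of 0.0518, so the MSM difference was several times either.

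The B6-Chr6CMSM males had 7.505 and 7.621 and the B6-Chr6TMSM males 7.612 and 7.612, against 7.886 and 7.794 in B6. Both strains lay wholly below B6. The differences were -0.28 ± 0.05 for B6-Chr6CMSM and -0.23 ± 0.05 for B6-Chr6TMSM, which are 64.1% and 52.7% of the MSM difference at this probe set. The C and T strains differed from each other by -0.05 ± 0.05, which is no more than the SE. The size in B6-Chr6CMSM depended on the male, from -0.33 without its second male to -0.22 without its first.

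B6-Chr2CMSM and B6-Chr8MSM followed. The signal was 7.669 and 7.703 in B6-Chr2CMSM and 7.738 and 7.646 in B6-Chr8MSM, below both B6 males. The differences from B6 were -0.15 ± 0.05 in each. For chromosome 2 the strain with the C part was lower than the strain with the T part by -0.08 ± 0.05. For chromosome X the strain with the C part was higher than the strain with the T part by 0.07 ± 0.05. The other pairs of parts, of chromosomes 7, 12 and 13, differed by less than the SE.

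The rest of the strains formed a gradual series. B6-Chr3MSM (7.654 and 7.733), B6-Chr17MSM (7.752 and 7.687), B6-Chr11MSM (7.693 and 7.760), B6-Chr9MSM (7.704 and 7.762), B6-Chr19MSM (7.767 and 7.705) and B6-Chr5MSM (7.732 and 7.745) had both males below both B6 males. So did B6-Chr1MSM (7.761 and 7.746), B6-ChrXTMSM (7.761 and 7.749), B6-Chr2TMSM (7.793 and 7.743), B6-Chr16MSM (7.767 and 7.776) and B6-Chr14MSM (7.790 and 7.786). The widest gap between 2 males of a strain, 0.193, was in B6-Chr7MSM (7.844 and 7.652), which overlapped B6.

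The means of B6-Chr15MSM (7.772), B6-Chr7TMSM (7.779), B6-ChrYMSM (7.780), B6-Chr12TMSM (7.787), B6-Chr13CMSM (7.794), B6-Chr13TMSM (7.799) and B6-Chr18MSM (7.802) came next, all with males that overlapped those of B6. At the top were B6-mtMSM (7.810), B6-Chr7CMSM (7.819), B6-ChrXCMSM (7.821), B6-Chr12CMSM (7.822), B6-Chr4MSM (7.840) and B6 (7.840). Of 29 steps between neighbours in this order, 2 exceeded the SE of a strain difference, the step above MSM and the step above B6-Chr6TMSM. In all, 27 of 28 consomic strains had a lower mean than B6, 15 had both males below both B6 males and 0 had both above. All of these comparisons share the 2 B6 males, and B6 male 1 (7.886) was exceeded by 1 male, of B6-Chr4MSM (7.897).

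**Figure D1:**
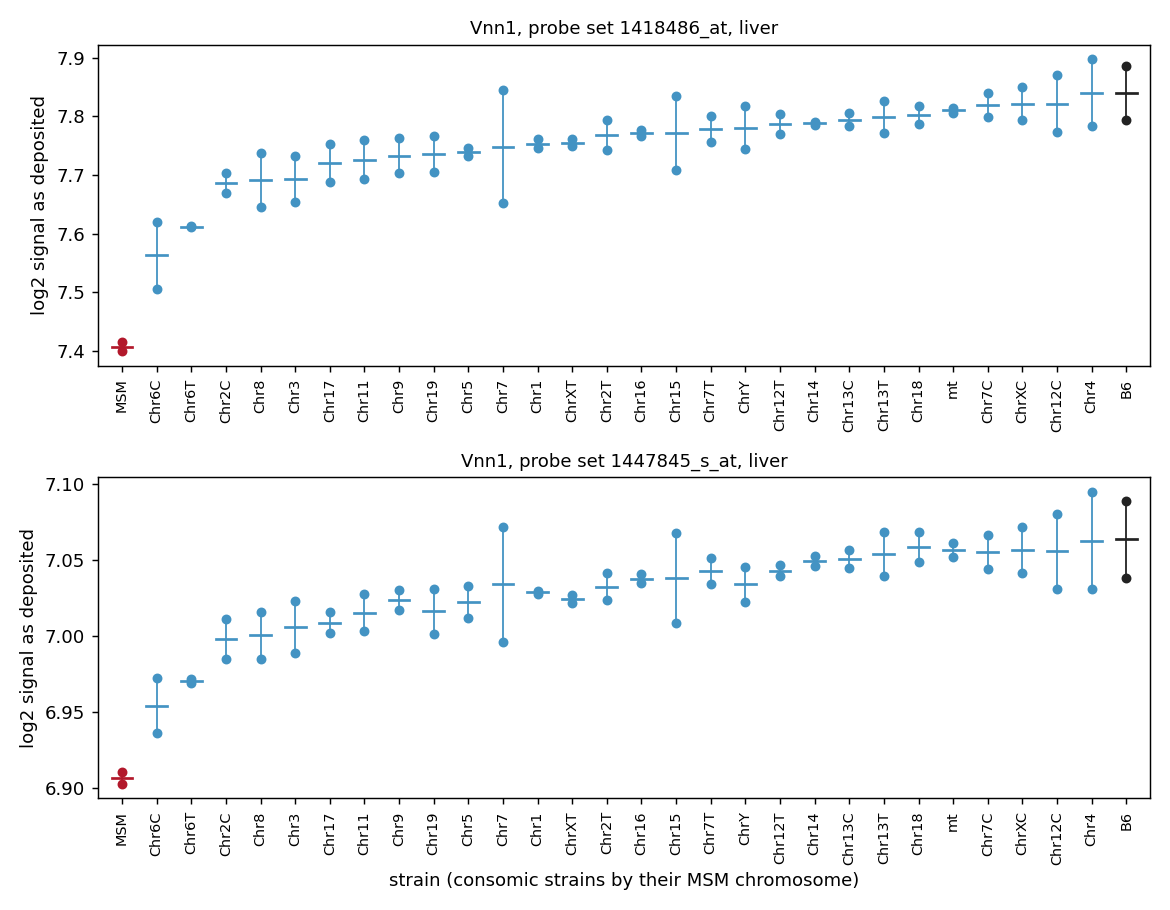
Vnn1 signal in every male, in deposited log2 units, for 1418486_at (upper panel) and 1447845_s_at (lower panel). Points are males, horizontal bars are strain means and vertical lines join the 2 males (red, MSM; blue, consomic strains in order of the upper panel; black, B6). MSM (7.400 and 7.416) and both chromosome 6 strains stand below the series that runs up to B6 (7.886 and 7.794), and the order is close to the same in both panels.

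The dimmer Vnn1 probe set, 1447845_s_at, gave the same low strains. It read 6.910 and 6.903 in MSM, against 7.089 and 7.038 in B6, a difference of -0.16 ± 0.02. The chromosome 6 strains again lay below B6, with 6.936 and 6.972 in B6-Chr6CMSM and 6.969 and 6.971 in B6-Chr6TMSM. Their differences from B6 were -0.11 ± 0.02 and -0.09 ± 0.02, and those of B6-Chr2CMSM and B6-Chr8MSM were -0.07 ± 0.02 and -0.06 ± 0.02. All 28 consomic strains had lower means than B6 here, 12 of them with both males below. Across the 29 strain means other than MSM the 2 probe sets had Pearson r = 0.99 and Spearman rho = 0.98, and r = 0.96 over the deviations of the 60 males from their strain means. They read the same RNA on the same arrays, so this describes the measurement. At this probe set 0 of 60 males exceeded 7.417, the median of all values, whereas 58 of 60 did at 1418486_at, all but the MSM males.

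Vnn3 was also lowest in MSM, but the chromosome 6 strains were not set apart. The Vnn3 probe set, 1420723_at, read 8.318 and 8.319 in MSM, against 8.369 and 8.365 in B6. The difference was -0.048 ± 0.004, and both MSM males lay below the other 58 males. The lowest consomic strains were B6-Chr17MSM with 8.354 and 8.354 and B6-Chr3MSM with 8.350 and 8.363. They differed from B6 by -0.013 ± 0.004 and -0.010 ± 0.004. In B6-Chr3MSM the size rested on 1 male, since it was -0.0168 without its second male and -0.0042 without its first.

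The remaining Vnn3 means covered a narrow range, from 8.358 in B6-Chr7MSM to 8.372 in B6-Chr13TMSM, with 8.367 in B6. B6-Chr6CMSM (8.357 and 8.364) and B6-Chr6TMSM (8.364 and 8.364) lay just below B6, by -0.006 ± 0.004 and -0.003 ± 0.004. B6-Chr2CMSM (8.369 and 8.372) lay above both B6 males, the only consomic strain to do so, and B6-Chr8MSM (8.365 and 8.369) overlapped B6. The step above MSM was the 1 of 29 neighbour steps larger than the SE. Of the consomic strains, 20 of 28 had a lower mean than B6, and 10 had both males below. For chromosome 7, the strain with the C part was lower than the strain with the T part by -0.011 ± 0.004, where the T males read 8.377 and 8.364.

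**Figure D2:**
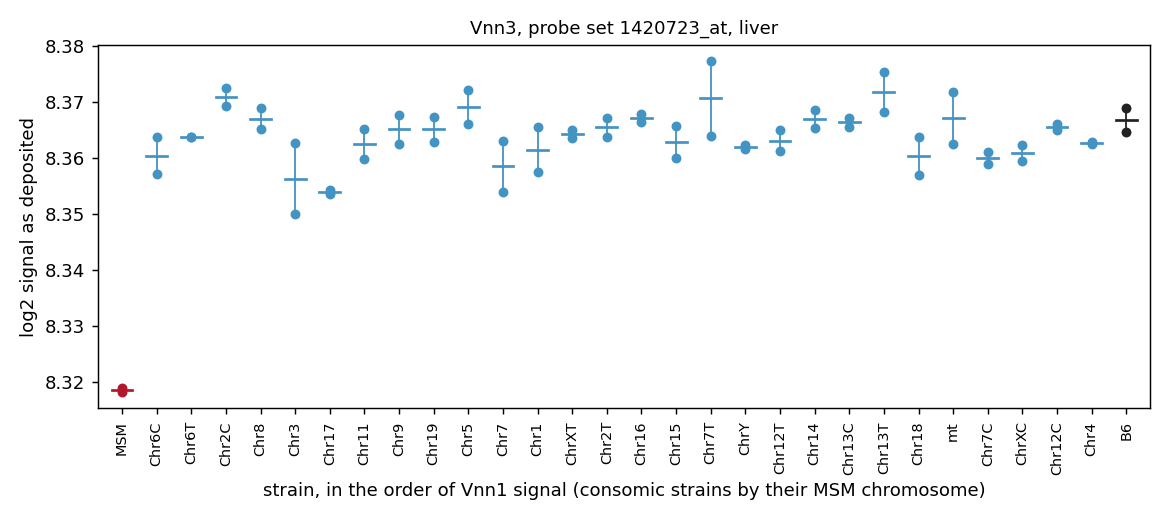
Vnn3 signal (1420723_at, deposited log2 units) in every male, with strains in the order of the Vnn1 plot. Points are males, bars strain means and lines join the 2 males (red, MSM; blue, consomic; black, B6). MSM (8.318 and 8.319) lies below all others, while the chromosome 6 strains lie within the range of the consomic strains.

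The start region of Vnn3 is shown because MSM, the strain with the large Vnn3 difference, is the one that carries its own copy of this region. The letters are those of the reference genome, not of MSM. They cover 250 bases before to 50 after the annotated start (RefSeq, GRCm38.p6, chr10:23851212-23851511, plus strand), with CCAAT on either strand in capitals:
Vnn3: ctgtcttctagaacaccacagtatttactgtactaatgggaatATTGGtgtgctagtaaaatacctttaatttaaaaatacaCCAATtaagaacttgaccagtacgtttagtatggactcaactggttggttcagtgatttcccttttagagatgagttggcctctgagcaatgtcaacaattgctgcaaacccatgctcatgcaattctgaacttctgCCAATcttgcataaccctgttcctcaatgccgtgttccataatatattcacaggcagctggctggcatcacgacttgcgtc
The window held CCAAT 2 times on the plus strand, 168 and 31 bases before the start, and 1 time on the minus strand, 207 bases before it. CCAAT on either strand was in 37.4% of 32851 such windows. AGGTCA, the half-site that PPARA and other nuclear receptors bind as pairs, had 0 matches on either strand, and 16.3% of the windows hold 1 or more. A direct repeat of 2 such half-sites 1 base apart had 0 matches as well, against 0.0396% of the windows. These are matches of letters in this window and describe nothing about the factors.

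Across strains the 2 genes did not follow each other. Over the 29 strain means without MSM, Vnn1 and Vnn3 had r = 0.17 and rho = 0.11, and r = 0.09 without B6-Chr6CMSM and B6-Chr6TMSM, the strains farthest from the Vnn1 median. With MSM included r was 0.69, which rests on that strain. Ranked by r with Vnn1, Vnn3 stood at place 2547 of the 11948 other tested genes. The deviations of the 60 males from their strain means were more alike, with r = 0.51. The 2 values of a male come from the same arrays.

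**Figure D3:**
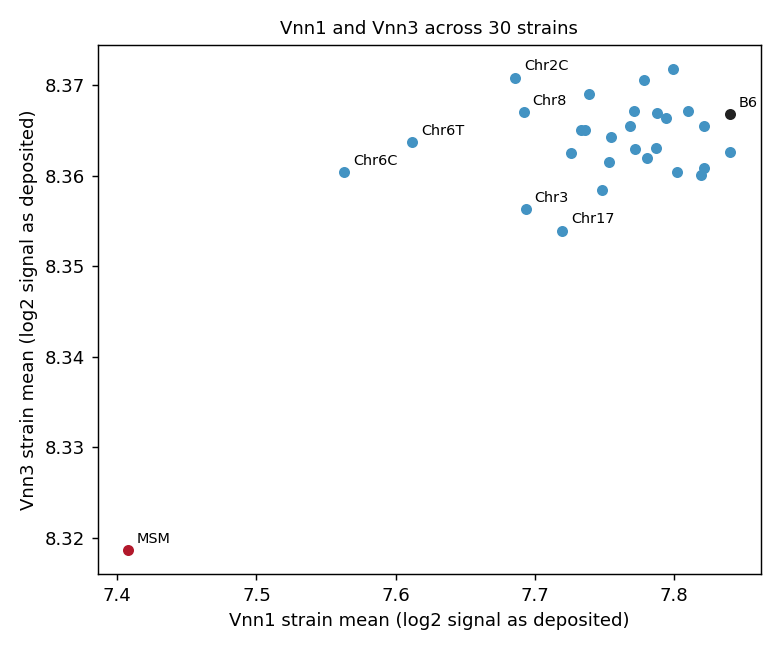
Strain means of Vnn1 (1418486_at, x axis) and Vnn3 (1420723_at, y axis) in deposited log2 units, 1 point per strain (red, MSM; blue, consomic; black, B6). MSM is low on both axes, the chromosome 6 strains are low for Vnn1 alone, and the other strains form a cloud with no clear slope (r = 0.17 over the 29 strains without MSM).

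Genes beside the pair were compared as the nearest measure of the same stretch of chromosome 10. Of 10 neighbours with a probe set, 5 on each side, 6 passed the filter on low values, which asked for at least 2 of 60 males above 7.417. Stx7, a syntaxin of late endosomes, was lower in MSM, with 8.52998 and 8.53010, against 8.53056 and 8.53069 in B6 (limma adjusted p = 0.000273). The other 5 were not called in MSM: Slc18b1, a polyamine transporter, Slc2a12, a glucose transporter, Tbpl1, Tcf21 and Ccn2. Among all tested genes 14.5% were called higher in MSM and 10.3% lower, so 1 call in 6 does not set the neighbours apart. Slc18b1 had r = 0.62 with Vnn1 over the 29 strains, and its differences from B6 were -0.00055 in B6-Chr6CMSM and -0.00050 in B6-Chr6TMSM, with limma adjusted p = 0.301 and 0.422. The other tested neighbours had r between -0.44 and 0.04.

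The genes whose strain pattern was most like that of Vnn1 were ranked by Pearson r over the 29 strain means without MSM. The 10 highest were Fitm1 (0.84), Entpd5 (0.83), Tmem134 (0.80), Uck1 (0.80), Atg7 (0.79), Marchf8 (0.78), Immt (0.78), Abcc3 (0.76), Srgap2 (0.76) and Mug1 (0.74). Fitm1 helps lipid droplets form, Entpd5 is a nucleoside diphosphatase of the endoplasmic reticulum, Uck1 is a uridine-cytidine kinase, and Abcc3 exports bile acids and conjugates at the blood side of the hepatocyte. The 5 lowest were Parp11 (-0.78), Apoa1 (-0.78), Mrps25 (-0.77), Tuba8 (-0.75) and Ccdc28b (-0.75).

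Several of these lie on chromosome 6, part of which comes from MSM in each of the 2 consomic strains in which Vnn1 is lowest. Which part holds a gene is not known here. Mug1, a plasma protease inhibitor, is the clearest, with 9.314 and 9.329 in B6-Chr6CMSM and a difference from B6 of -0.88 ± 0.03. It was as low in B6-Chr6TMSM, with 9.347 and 9.325 (-0.86 ± 0.03), and in MSM (-0.84 ± 0.03). Where a gene itself comes from MSM, a different level and a different match to the probes cannot be told apart. In both chromosome 6 strains limma also called Atg7, Marchf8 and Immt lower and Mrps25 and Tuba8 higher, but not Parp11. Among all tested genes 0.243% were called higher and 0.243% lower in B6-Chr6CMSM, and 0.117% and 0.142% in B6-Chr6TMSM. The genes were ranked over strain means in which these 2 strains were the extremes for Vnn1. Calls in these strains thus follow in part from the ranking. Without the 2 chromosome 6 strains the r of Mug1 with Vnn1 was 0.15. Under the same omission r was 0.46 for Atg7, an autophagy enzyme, 0.61 for Marchf8, a membrane ubiquitin ligase, and 0.40 for Immt, a protein of the mitochondrial inner membrane. It was -0.48 for Parp11, -0.32 for Mrps25 and -0.26 for Tuba8, which are on chromosome 6 as well. Genes on other chromosomes held higher values without those strains, with 0.80 for Entpd5, 0.72 for Fitm1, 0.72 for Srgap2, 0.70 for Tmem134, 0.69 for Uck1 and 0.61 for Abcc3.

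Values of some like genes are given as a description. They were ranked by r over strain means in which the chromosome 6 strains were the extremes for Vnn1. Low signal in those strains thus follows in part from the ranking. Fitm1 read 8.507 and 8.528 in B6-Chr6CMSM and 8.519 and 8.500 in B6-Chr6TMSM, the lowest 2 of the 30 strain means, with differences from B6 of -0.06 ± 0.02 and -0.07 ± 0.02. Fitm1 in MSM was next in order and differed from B6 by -0.06 ± 0.02. It was not called by limma in B6-Chr6CMSM (adjusted p = 0.301), B6-Chr6TMSM (0.261) or MSM (0.0686). Abcc3 was also lowest in the chromosome 6 strains, with differences of -0.0025 ± 0.0005 in B6-Chr6CMSM and -0.0030 ± 0.0005 in B6-Chr6TMSM (limma adjusted p = 0.016 and 0.00179). In MSM, however, Abcc3 differed from B6 by -0.0003 ± 0.0005, within the SE, and Entpd5 by -0.0003 ± 0.0005. Apoa1, the main protein of HDL, is near the top of the scale, and its difference of 3.16e-06 in B6-Chr6TMSM was below its SE of 3.77e-06.

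For Vnn3 the 5 most alike genes were Gstt1 (r = 0.68), a glutathione S-transferase also on chromosome 10, Ebpl (0.68), Hyi (0.63), Slc16a7 (0.63), a monocarboxylate transporter on chromosome 10, and Manbal (0.63). These r values are lower than the highest for Vnn1. None of the 5 was among the 10 of Vnn1. The strain means other than MSM, each of 2 males, had an SD of 0.0042 for Vnn3 and 0.064 for Vnn1. The residual SDs, which are those of single males, were 0.0040 and 0.050. Without MSM, 67.6% of the variance of Vnn3 lay between strain means, beside 75.2% for Vnn1. The spread between males adds to both shares.

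Genes of 3 pathways and 1 relative were then set beside the vanins: PPARA targets and partners, enzymes and carriers of coenzyme A, enzymes of cysteamine, taurine and glutathione, and Btd. Of the 45 PPARA genes (Vnn1 not counted), 40 had a probe set with 1 symbol and 39 passed the filter. Of these, 37 had a positive r with Vnn1 over the 29 strains, with a median of 0.35. Over all 11948 other tested genes 46.2% were positive and the median was -0.02. Without the 2 chromosome 6 strains, 36 of 39 were positive with a median of 0.35. With MSM included, 22 of 39 were positive with a median of 0.10. The deviations of the 60 males within strains gave 27 of 39 positive, against 52.3% of all genes.

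The 8 PPARA genes closest to Vnn1 had r between 0.65 and 0.72. Acaa1b, a peroxisomal thiolase, had r = 0.72, Aldh3a2, a fatty aldehyde dehydrogenase, 0.72, Eci1, an enoyl-CoA isomerase, 0.71, and Acaa1a 0.69. Decr1 and Slc25a20, the mitochondrial acylcarnitine carrier, had 0.68 each, Ehhadh 0.68 and Hsd17b4 0.65. Ppara itself had 0.35. Other genes of fat oxidation were less alike, with 0.35 for Acadl, 0.22 for Cpt2, 0.04 for Hadha and 0.03 for Cpt1a. Pdk4 had 0.19, Angptl4 0.16, Cyp4a14 0.10 and Fgf21 -0.06. The coactivator gene Ppargc1a had -0.46. With Vnn3, 8 of the 39 were positive with a median of -0.22, against 48.4% of all genes and a median of -0.01. Within strains 19 of the 39 were positive with Vnn3, against 53.2% of all genes.

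The scaling of the arrays moved these counts. After quantile normalization 32 of the 39 kept a defined r with Vnn1 and 23 of them were positive, against 18.8% of all genes. After centring each array on its median 31 of 39 were positive, against 15% of all genes. With Vnn3, 7 of 32 were positive after quantile normalization (median -0.16), against 25.9% of all genes (median -0.21). After centring, 4 of 39 were positive with Vnn3 (median -0.32), against 15.4% of all genes (median -0.31). The low r of the list with Vnn3 thus stood apart from all genes mainly on the deposited scale.

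**Figure D4:**
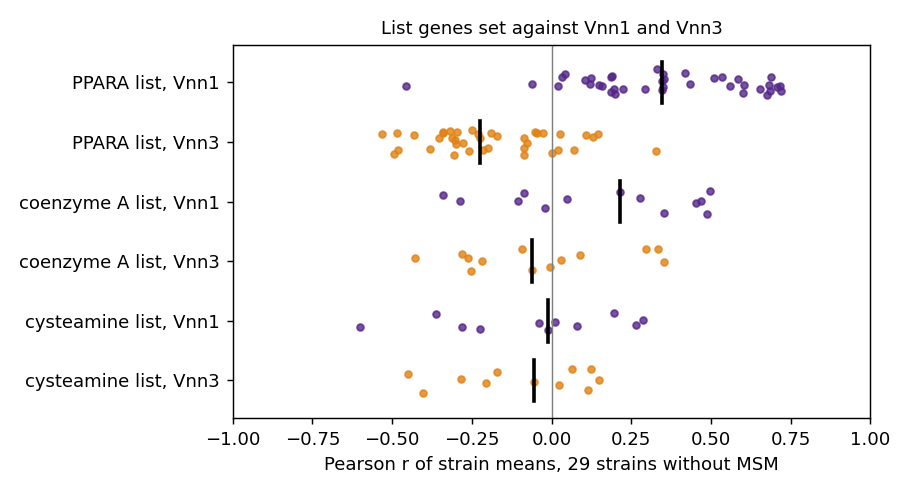
Pearson r of each tested list gene with Vnn1 (purple) or Vnn3 (orange) over the 29 strain means without MSM, 1 point per gene, with black bars at the list medians. On the deposited scale the PPARA list lies to the right of 0 for Vnn1 (median 0.35) and mostly to the left for Vnn3 (median -0.22).

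The same PPARA genes were compared with B6 by limma in MSM and in the consomic strains named above, with calls at an adjusted p below 0.05 over 11949 tested genes. In MSM 14.5% of all tested genes were called higher and 10.3% lower. Every gene comes from MSM in that strain. For each call there, a different level and a different match to the probes cannot be told apart. Of the 39 PPARA genes, 2 were higher and 5 lower, which for the lower calls is a share near the background. Cyp4a14, a fatty acid omega-hydroxylase, read 7.454 and 8.157 in MSM, against 9.683 and 9.381 in B6 (difference -1.73 ± 0.22, limma adjusted p = 6.60e-07). The 2 MSM males differed widely, and both lay below both B6 males.

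Acaa1b read 13.3212 and 13.3218 in MSM, against 13.3236 and 13.3228 in B6, and was called lower (limma adjusted p = 5.74e-07). After quantile normalization its values no longer differed between MSM and B6 (difference -1.776e-15), so it could not be called. Aldh3a2 read 9.985 and 9.986 in MSM, against 10.004 and 9.999 in B6, and was lower (limma adjusted p = 4.98e-05). Slc25a20 and Cd36, a fatty acid transporter, were lower with limma adjusted p = 0.015 and 0.0215. After quantile normalization Slc25a20 turned to a difference of 0.0015 above B6 and was not called. Slc25a20 kept its call in 1 of the 4 fits that left out 1 male of MSM or B6, and Cd36 in 0 of 4.

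Acot4, a peroxisomal acyl-CoA thioesterase, was higher in MSM, with 7.756 and 7.764, against 7.736 and 7.730 in B6 (limma adjusted p = 2.96e-06). Creb3l3, a liver transcription factor that acts with PPARA, was higher as well (limma adjusted p = 0.00224), with the call kept in 3 of 4 fits that left out a male. The list as a whole had 17 of 39 genes below B6 in MSM and a median of 0.23 residual SDs, against 0.59 for all genes. In MSM, where Vnn1 was lowest, 22 of the 39 thus lay above B6, as did most of all tested genes.

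In B6-Chr6CMSM limma called 0 of the 39, against 0.243% of all genes higher and 0.243% lower. At an unadjusted p below 0.05, 0 PPARA genes were higher and 10 lower, where 5.49% of all genes were higher and 4.18% lower. In this strain 35 of 39 lay below B6 with a median of -1.45 residual SDs, where all genes had a median of 0.15. Aldh3a2 read 9.989 and 9.995 in B6-Chr6CMSM, against 10.004 and 9.999 in B6, with both males below (limma adjusted p = 0.153).

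In B6-Chr6TMSM limma called 0 of 39 as well (background 0.117% higher and 0.142% lower), with 0 higher and 3 lower at an unadjusted p below 0.05 (all genes, 5.12% higher and 4.01% lower). There 32 of 39 were below B6, with a median of -0.96 residual SDs, against 0.18 for all genes. In B6-Chr2CMSM, with 0 called (background 0.0837% higher and 0.0837% lower), 0 genes were higher and 15 lower at an unadjusted p below 0.05 (all genes, 3.89% higher and 3.72% lower). There 37 of 39 lay below B6, the most of these strains, with a median of -1.56, against 0.17 for all genes.

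In B6-Chr8MSM, 0 were called by limma (background 0.0921% higher and 0.218% lower). At an unadjusted p below 0.05, 1 was higher and 4 were lower (all genes, 4.21% higher and 5.90% lower), and 25 of 39 lay below B6, against 46.9% of all genes. In B6-Chr17MSM 0 were called by limma (background 0.0418% higher and 0.176% lower), with 0 higher and 2 lower at an unadjusted p below 0.05 (all genes, 2.95% higher and 2.70% lower), and 26 of 39 lay below B6, against 49.4% of all genes. In B6-Chr3MSM 0 were called by limma (background 0.218% higher and 0.41% lower), again with 0 higher and 2 lower at an unadjusted p below 0.05 (all genes, 5.40% higher and 3.67% lower), and 22 of 39 lay below B6, against 45.2% of all genes.

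These comparisons share the B6 males, so the counts are not separate evidence. Set against the mean of the strains other than MSM, 33 of 39 PPARA genes were below it in B6-Chr6CMSM, 26 in B6-Chr6TMSM and 38 in B6-Chr2CMSM, but 21 in B6-Chr8MSM. Without B6 male 1 the counts below B6 were 31 in B6-Chr6CMSM, 24 in B6-Chr6TMSM, 33 in B6-Chr2CMSM and 17 in B6-Chr8MSM. After quantile normalization 23, 21 and 30 of 39 were below B6 in B6-Chr6CMSM, B6-Chr6TMSM and B6-Chr2CMSM, while all genes shifted upwards, with medians of 1.33, 1.14 and 0.43 residual SDs. These counts cover all 39, although only 32 kept a defined r with Vnn1 after this step. The sign of a gene left without spread is rounding, so the counts are not exact.

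**Figure D5:**
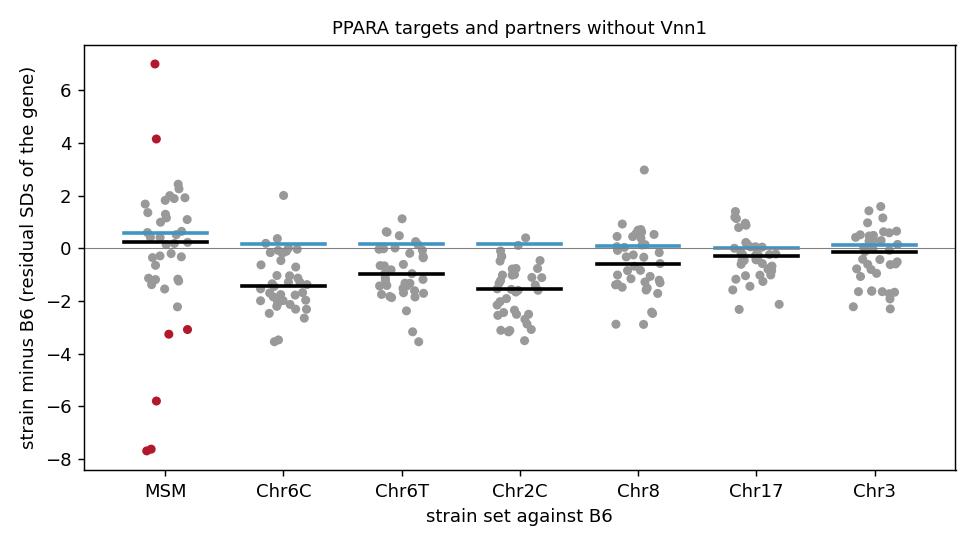
Differences from B6 of the 39 tested PPARA genes in MSM and 6 consomic strains, each divided by the gene's residual SD. Points are genes (red, called by limma at an adjusted p below 0.05; grey, not called), black bars the list medians and blue bars the medians of all tested genes. The list median lies below that of all genes in B6-Chr6CMSM (-1.45), B6-Chr6TMSM (-0.96) and B6-Chr2CMSM (-1.56), and near it in MSM (0.23).

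Of the coenzyme A list 13 of 14 genes passed the filter. In MSM 2 were called higher and 3 lower, beside 14.5% and 10.3% of all genes. Nudt19, a peroxisomal hydrolase of coenzyme A, read 8.690 and 8.690 in MSM, against 8.703 and 8.701 in B6 (limma adjusted p = 6.45e-07). Slc25a16, a mitochondrial carrier linked to coenzyme A and encoded on chromosome 10, read 8.511 and 8.512 in MSM, against 8.517 and 8.517 in B6 (limma adjusted p = 2.99e-06). Aasdhppt, which attaches the phosphopantetheine arm of coenzyme A to carrier proteins, read 9.036 and 9.036 in MSM, against 9.041 and 9.040 in B6 (limma adjusted p = 6.62e-06). These 3 calls held in all 4 fits that left out a male.

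Nudt8 was higher in MSM with limma adjusted p = 0.0116 and kept its call in 2 of those fits. Slc25a42, the mitochondrial carrier of coenzyme A, was higher with 0.0309 and kept it in 0. In the 6 consomic strains limma called 0 of 13 in each, with 0 to 2 higher and 1 to 3 lower at an unadjusted p below 0.05. Over all tested genes 2.95% to 5.49% were higher and 2.70% to 5.90% lower at that threshold in these strains. The pantothenate kinases, which start coenzyme A synthesis from pantothenate, varied in likeness to Vnn1: r was 0.49 for Pank3, 0.47 for Pank1, -0.09 for Pank4 and -0.10 for Pank2. The list's median r with Vnn1 was 0.21, with 8 of 13 positive, against 46.2% of all genes. With Vnn3 it was -0.06, with 5 of 13 positive, against 48.4% of all genes. These counts also moved with the scaling. After quantile normalization 6 of 13 were positive with Vnn1 and 8 with Vnn3, against 18.8% and 25.9% of all genes. After centring each array on its median the counts were 6 and 1 of 13, against 15% and 15.4%.

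All 11 genes of the cysteamine, taurine and glutathione list with a probe set passed the filter. In MSM 2 were higher and 1 lower, shares near the 14.5% and 10.3% of all genes. Csad, which makes hypotaurine, read 8.766 and 8.746 in MSM, against 8.876 and 8.851 in B6 (difference -0.11 ± 0.03, limma adjusted p = 0.00459). Fmo1, a flavin monooxygenase that oxidises hypotaurine to taurine, and Gclc, the catalytic subunit of the first enzyme of glutathione synthesis, were higher, with limma adjusted p = 0.0153 and 0.0476. Without 1 male these calls held in 2 of 4 fits for Csad, 2 of 4 for Fmo1 and 1 of 4 for Gclc.

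In the 6 consomic strains limma called 0 of these 11 in each. At an unadjusted p below 0.05, 0 to 2 were higher and 0 to 1 lower, beside the same shares of all genes as for the coenzyme A list. On the deposited scale the median r was -0.01 with Vnn1 and -0.06 with Vnn3, beside -0.02 and -0.01 over all genes. Btd, the biotinidase gene, was called in 0 of the 7 comparisons. Its unadjusted p was below 0.05, with higher signal than B6, in B6-Chr6CMSM, B6-Chr6TMSM, B6-Chr8MSM and B6-Chr3MSM, by 2.52, 3.15, 2.75 and 2.47 residual SDs. These comparisons share the 2 B6 males, and Btd was also above B6 in B6-Chr17MSM, by 1.40 residual SDs. In MSM it lay below B6 by -1.54 residual SDs. Its r with Vnn1 was -0.27 over the 29 strains.

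The tissue label was checked with markers of liver cell types. The 7 hepatocyte markers had mean signals of 13.61 in each MSM male and 13.60 to 13.61 in the B6 males, and limma called 0 of 7 in MSM, with 1 higher and 0 lower at an unadjusted p below 0.05. Of 11 tested Kupffer cell and macrophage markers, 4 were lower in MSM (Csf1r, Lyz2, Clec4f and Vsig4) and 0 higher, beside 10.3% and 14.5% of all genes. Without 1 male, Csf1r kept its call in 4 of 4 fits, Lyz2 in 2, Clec4f in 1 and Vsig4 in 0, and Clec4f was not called after quantile normalization. Their mean level was -3.00 and -2.88 residual SDs in MSM males, against -0.61 and -0.58 in B6 males. In B6-Chr2CMSM all 11 lay above B6, with 0 called by limma and 3 at an unadjusted p below 0.05, and the males stood at -0.18 and 2.57 residual SDs. In B6-Chr6CMSM and B6-Chr6TMSM the level ran from -0.27 to 0.42. Among the markers of other cells, Alas2 (erythroid, limma adjusted p = 1.96e-05) and Lrat (1 of 7 stellate cell markers, 0.00162) were lower in MSM. Of 6 endothelial markers Lyve1 was higher (0.00365) and Clec4g lower (0.0102). After quantile normalization Clec4g had the opposite sign and was not called. Cxcr2 (1 of 3 neutrophil markers, 0.00207) and Epcam (1 of 2 cholangiocyte markers, 0.00414) were higher, and limma called 0 of 4 lymphocyte markers, with 0 at an unadjusted p below 0.05. In the 6 consomic strains 1 marker was called, Clec4g, lower in B6-Chr8MSM (limma adjusted p = 0.000837). There 0.0921% of all genes were called higher and 0.218% lower. Clec4g lies on chromosome 8, which this strain carries from MSM. Its level and its match to the probes therefore cannot be told apart. The part of these markers in the Vnn1 and Vnn3 differences was not tested.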

How the data were processed

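Per the labels' protocols, total RNA of livers was amplified, labelled with biotin and hybridised, 1 sample per array. The authors deposited log2 signals per probe set, with no summary or normalization method named in the sources used here; the scale was read from the values. Gene symbols came from the platform annotation, updated by gene ID through RefSeq genes (GRCm38.p6): of 45037 probe sets, 34945 had 1 symbol, 932 several and 9160 none, and 34741 matched. The 2 arrays with 1 animal number were averaged as 1 male, which the labels do not state outright. The brightest probe set stood for each of 18193 genes, and 11949 passed the filter. limma 3.58.1 (R 4.3.3) fitted 1 mean per strain over 60 males (30 residual degrees of freedom, prior 0.592), with Benjamini-Hochberg adjustment within a contrast. The fit was tested on simulated data. P-values set a difference against 1 spread between males of a strain, pooled over all 30 strains, and having 2 males per strain limits the precision. No detection call was used.

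Named strains were the 4 consomic strains farthest from B6 for Vnn1 and the 2 for Vnn3 with non-overlapping males. Like genes, neighbours and up to 4 called genes per list (largest difference in residual SDs) were named, with Slc25a20, Cd36, Creb3l3, Slc25a42 and the list genes given by r added after their values were seen. The members and lists were chosen with earlier results of these data known.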

Additional observations from a re-analysis of the deposited data

How the results depend on the processing

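Vnn1 (MSM, B6-Chr6CMSM, B6-Chr6TMSM, B6-Chr2CMSM, B6-Chr8MSM) and Vnn3 (MSM, B6-Chr17MSM, B6-Chr3MSM) stayed below B6 in every alternative run. Against the mean of the other strains the 5 Vnn1 differences were -0.349, -0.201, -0.150, -0.0736 and -0.0673. At the dimmer probe set they were -0.157, -0.109, -0.0933, -0.0654 and -0.0631. Leaving out 1 male moved B6-Chr6CMSM between -0.335 and -0.219 for Vnn1 and B6-Chr3MSM between -0.0168 and -0.0042 for Vnn3. No paired analysis was possible because animal numbers are not shared between strains.

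The calls of list genes depended on scaling. In MSM 15 genes of the lists were called, 30 after quantile normalization (23 higher and 7 lower), 42 after median centring (34 higher and 8 lower), and 5 (all lower) in a fit on MSM and B6 alone. Where 0 were called, quantile normalization gave 1 in B6-Chr17MSM, median centring gave 11 in B6-Chr6CMSM (9 higher and 2 lower) and 7 in B6-Chr6TMSM (5 higher and 2 lower), and the second array of each male alone gave 1 each in B6-Chr6CMSM, B6-Chr2CMSM and B6-Chr8MSM. Leaving out 1 male gave 0 to 1 in B6-Chr6CMSM and 0 to 1 in B6-Chr2CMSM. Both rescalings also moved genes as a whole: the median of all genes in MSM was 6.02 residual SDs above B6 after quantile normalization and 0.59 as deposited. The share of all genes called under each of these settings is not given here. The counts therefore describe the settings and are not read as a result about the lists.

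Of the 10 genes most like Vnn1, 2 stayed among the 10 with MSM included, 3 without the chromosome 6 strains, 4 by Spearman rho and 2 after quantile normalization. Of the 5 for Vnn3, 0, 1, 2 and 0 stayed under the same alternatives, with B6-Chr17MSM and B6-Chr3MSM left out. The cause of these moves was not tested. No measure of signal over background was used, so no limit is set for dim probe sets.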

Other observations

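Genes that moved with the vanins between the 2 males of a strain differed from those that followed them across strains. They were chosen after their values were seen. Over the deviations of the 60 males from their strain means, the highest Pearson r with Vnn1 were those of Acot8 (0.76), a peroxisomal acyl-CoA thioesterase, Nr1i3 (0.72), the xenobiotic receptor CAR, Tmem18 (0.71), Agmo (0.71), an ether lipid monooxygenase, and Ces2e (0.70), a carboxylesterase. Their r over the 29 strain means was 0.63 for Acot8, 0.37 for Nr1i3, 0.19 for Tmem18, 0.34 for Agmo and 0.50 for Ces2e. For Vnn3 the highest were Commd10 (0.71), Dhrs7 (0.69), Ctso (0.68), Dsg2 (0.66) and Cd82 (0.66). The 2 males of a strain deviate by equal and opposite amounts, so the 60 deviations hold 30 independent differences, and the values of a male share arrays.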
